A study of Mus musculus with 6 samples.

Results

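The 10 genes described here belong to the BCL2 family, which sets the balance between survival and apoptosis at the mitochondrial outer membrane. They were chosen by symbol from the 78298 genes of the deposited table, and each symbol matched 1 gene. Prosurvival members (Bcl2, Bcl2l1 and Mcl1) bind and restrain the effectors Bax and Bak1, which can form pores that release cytochrome c. BH3-only members (Bbc3, Pmaip1, Bcl2l11, Bid and Bad) bind prosurvival members, and some of them also activate the effectors directly, so the proportions among the groups matter as much as any single level. Many members are also set by phosphorylation, cleavage, binding or protein turnover, none of which RNA counts record.

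The cells were RENCA, an established mouse renal adenocarcinoma line. The oe-AQP1 group (n = 3) carried a lentivirus with the coding sequence of mouse Aqp1 under the ubiquitin C promoter, and the oe-NC group (n = 3) carried the empty vector. Both were puromycin-resistant transduced populations, kept under 2 μg/mL of the drug over 14 days, and no untransduced RENCA sample was part of the comparison. The samples are described as biological replicates, though no label tells separate transductions from separate dishes of the same transduced population, and the p-values measure only the spread between these samples. The comparison asks which RNAs differ when Aqp1 is overexpressed, and in the study Bax was also probed as a protein in xenografts.

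Expected read counts totalled 18385714 to 21920899 per sample. CPM values (read counts put on a common library size by the TMM method) of Aqp1 were 390.1, 389 and 381 in the oe-AQP1 samples and 2.09, 1.37 and 2.11 in the oe-NC samples, so the targeted gene followed the labels. Of 8 renal epithelial markers, Krt8, Krt18, Pax8 and Cdh16 were at 109.5 CPM or more on average in each group. Pax2 was at 52.8 CPM with oe-AQP1 and 44.9 CPM with oe-NC. Krt7 (4.16 and 6.38 CPM) and Cdh1 (2.05 and 3.75 CPM) were low in both groups, and Epcam had no count in any sample. Summed, the 8 markers ranged from 789 to 818 CPM with oe-AQP1 and from 961 to 1063 CPM with oe-NC. Of 8 macrophage markers, Adgre1 had no count and Ptprc had at most 3 counts in any sample, and the summed level, mostly Cd68, Cd14, Lyz2 and Csf1r, was 59.0 to 62.2 CPM against 69.3 to 71.3 CPM. T cell markers summed to at most 0.235 CPM and endothelial markers to at most 1.73 CPM. Of all counts, mitochondrially encoded RNA took 1.71% to 1.76% with oe-AQP1 and 2.37% to 3.00% with oe-NC. The oe-NC sample 1 stood apart from its group. Its counts differed from those of the other 2 oe-NC samples by a chi-square of 9.81 and 11.4 per gene, against 1.71 to 2.04 for every other pair within a group. The part of these differences in the results below was not tested beyond leaving out each sample, and in bulk RNA fewer cells with a transcript cannot be told apart from less of it per cell.

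Among the 10 members, Bid and Bak1, both proapoptotic, were higher in oe-AQP1 cells, Bcl2l1, which is prosurvival, was lower, and Bbc3, which is proapoptotic, was lower as well. The other 6 members, Bax, Bcl2 and Mcl1 among them, did not pass the test. The differences were small: Bid was 1.47-fold higher and Bak1 1.23-fold higher, while Bcl2l1 stood at 0.737 and Bbc3 at 0.722 of the oe-NC level. All 10 genes passed the low-count filter. At a Benjamini-Hochberg adjusted p (FDR) under 0.05 by limma-voom, 4 of 10 members were called, 2 higher and 2 lower, against 32.5% of the 15522 genes tested (16% higher and 16.6% lower), so the share of members called was near that of all genes. No member met the study's thresholds for a differentially expressed gene (DEG), an FDR under 0.05 with an absolute log2 fold change (log2FC) above 1. Of all genes, 5.23% met them (4.39% higher and 0.844% lower). The paper also filtered out interferon-stimulated and viral defense genes, which was not done here. The same 4 members had an unadjusted p under 0.05, and neither edgeR nor DESeq2 gave a DEG among the members. The median absolute log2FC was 0.06 over the members and 0.18 over all genes tested. The median standard error (SE) was 0.054 and 0.078, so these medians are not matched for precision.

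**Figure D1:**
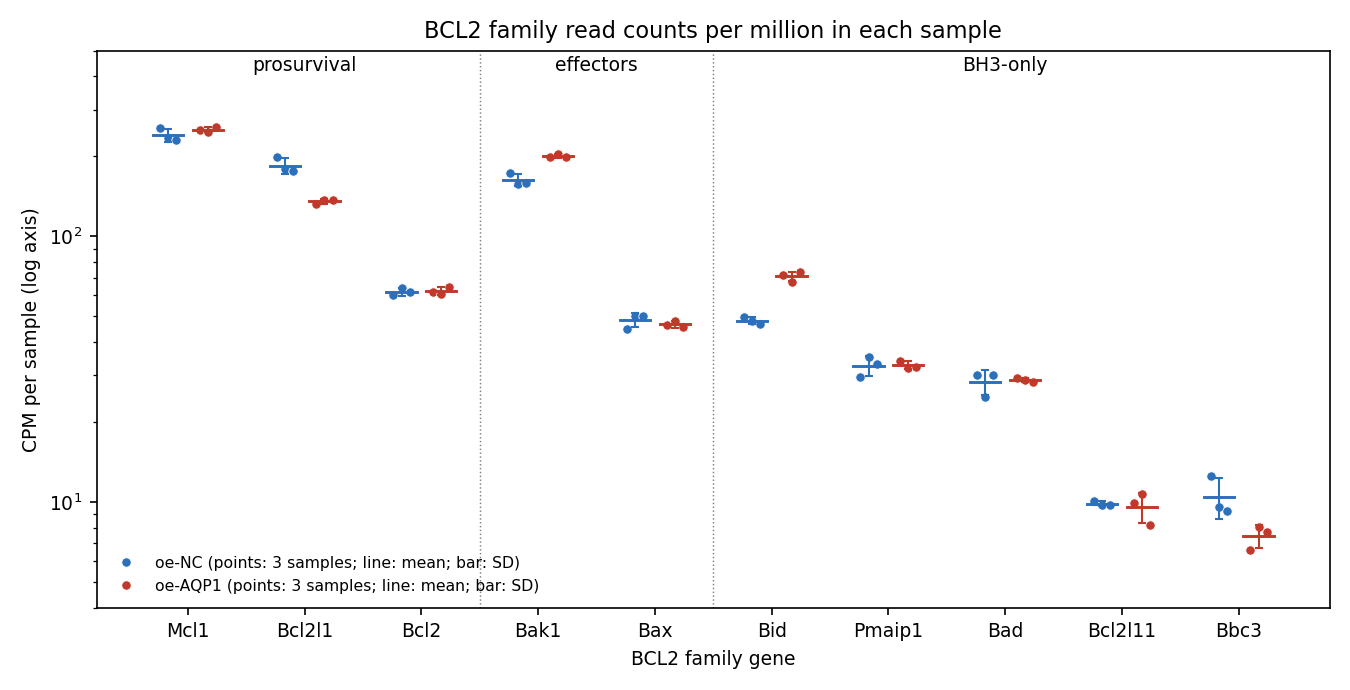
CPM of each of the 10 genes (log axis) in the 3 oe-NC (blue) and 3 oe-AQP1 (red) samples, with the mean as a line and the SD as a bar. The red and blue points are apart for Bcl2l1, Bak1, Bid and Bbc3 and overlap for the other 6 genes.

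Bcl2l1 encodes BCL-xL, a prosurvival protein of the outer membrane, and lies on chromosome 2 of GRCm39 (152622582 to 152673655, reverse strand). It was at 132, 137 and 138 CPM in the oe-AQP1 samples and at 199, 179 and 176 CPM in the oe-NC samples. Every oe-AQP1 sample was below every oe-NC sample, and oe-NC sample 1 was the highest of all. The log2FC of oe-AQP1 against oe-NC was -0.44 (SE 0.05, FDR = 1.06e-04 by limma-voom), and it stayed between -0.48 and -0.39 when any single sample was dropped. The same gene also encodes the shorter proapoptotic splice form BCL-xS, and counts per gene do not separate the forms.

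Mcl1 encodes a short-lived prosurvival protein that restrains BAK1 in particular. Its level was 251, 247 and 258 CPM in oe-AQP1 and 256, 235 and 230 CPM in oe-NC samples, the highest of the 10 genes in CPM. The groups overlapped because oe-NC sample 1 lay among the oe-AQP1 samples. The log2FC was 0.07 with a 95% confidence interval from -0.03 to 0.17 (FDR = 0.265 by limma-voom). Without oe-NC sample 1 it was 0.12 (FDR = 9.24e-04), and with sample quality weights 0.10 (FDR = 0.0161), so that the call on Mcl1 turned on that sample.

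Bcl2, the founding prosurvival member, was at 61.7, 60.9 and 64.6 CPM in oe-AQP1 and at 60.0, 64.0 and 61.5 CPM in oe-NC samples. The samples of both groups were interleaved. The interval of its log2FC ran from -0.09 to 0.12.

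Of the pore-forming effectors, Bak1 rose and Bax did not pass the test. Bak1, which sits in the outer membrane of living cells, was at 199, 205 and 199 CPM in oe-AQP1 and at 173, 158 and 158 CPM in oe-NC samples. The groups did not overlap, and the log2FC was 0.30 (SE 0.04, FDR = 5.81e-04 by limma-voom), between 0.28 and 0.34 with each sample left out. Bak1 lies on chromosome 17 (27238784 to 27247983 of GRCm39, reverse strand).

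Bax, which is mostly cytosolic until it is activated, was at 46.6, 48.2 and 45.5 CPM in oe-AQP1 samples. In oe-NC samples it was at 45.0, 50.0 and 50.4 CPM, so that the lowest and the highest values were both controls. The log2FC was -0.05 with an interval from -0.18 to 0.08 (FDR = 0.543 by limma-voom), and over all alternatives it lay between -0.10 and -0.02. The upper end of that interval is below the difference seen in Bak1.

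Bid had the smallest FDR of the 10 genes. Bid encodes a BH3-only protein that caspase-8 cleaves, which links death receptors to mitochondria. Its rounded counts were 1416, 1484 and 1507 in oe-AQP1 and 973, 881 and 995 in oe-NC samples, or 71.6, 67.5 and 73.3 CPM against 49.6, 48.2 and 46.7 CPM. The lowest oe-AQP1 sample was well above the highest oe-NC sample. The log2FC was 0.56 (SE 0.05, interval from 0.44 to 0.67, FDR = 2.05e-05 by limma-voom) and stayed between 0.53 and 0.59 with each sample left out. Bid lies on chromosome 6 (120862525 to 120894171 of GRCm39, reverse strand) and overlaps Bcl2l13 on the opposite strand, with 3059 exon bases in common. Bcl2l13 itself was 1.15-fold higher in oe-AQP1 cells. Whether reads were counted by strand is not given in the sources used here, so reads in the shared bases may be uncertain for both genes. The same limit holds for other members. Bak1, Bcl2l1 and Bcl2 share up to 437, 476 and 558 exon bases with Ggnbp1, Gm74855 and D630008O14Rik on the opposite strand. Bad shares 1130 with Gm56656 and 914 with Gpr137, and Bcl2l11 and Bax share 126 and 60 with Gm75592 and Gm73431. Expected counts were not whole in 5 of 6 samples for Bid, in all 6 for Bak1, Bcl2l1 and Bad, and in 2 for Bcl2.

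Bbc3 encodes PUMA, a BH3-only protein known as a p53 target that binds all prosurvival members. It was at 6.63, 8.05 and 7.73 CPM in oe-AQP1 and at 12.6, 9.57 and 9.24 CPM in oe-NC samples. The groups did not overlap, but the spread within each was wide, with a coefficient of variation of 17.6% in oe-NC and 10.01% in oe-AQP1 samples. The log2FC was -0.47 (SE 0.14, FDR = 0.0241 by limma-voom). The call did not hold without oe-AQP1 sample 1 (log2FC -0.39, FDR = 0.0961) or without oe-AQP1 sample 3 (log2FC -0.50, FDR = 0.063), and without oe-NC sample 1 the log2FC was -0.33 (FDR = 0.0261).

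The remaining BH3-only members did not pass the test. Pmaip1 encodes NOXA, which binds MCL1, and was at 34.04, 32.1 and 32.4 CPM in oe-AQP1 and 29.7, 35.1 and 33.2 CPM in oe-NC samples. Bad, a protein that phosphorylation holds in the cytosol, was at 29.3, 28.9 and 28.3 CPM against 30.1, 25.0 and 30.2 CPM. Bcl2l11, which encodes BIM, was at 9.91, 10.7 and 8.22 CPM against 10.1, 9.74 and 9.76 CPM. In each of these genes the range of 1 group lay within or across that of the other. The 95% intervals of the log2FC were -0.14 to 0.16 for Pmaip1, -0.15 to 0.19 for Bad and -0.29 to 0.19 for Bcl2l11, so that at this depth a change as large as that of Bid lay outside all 3 intervals. An exact two-sided permutation test over the 6 samples gave p = 0.1 for each of Bid, Bak1, Bcl2l1 and Bbc3, the smallest value that 3 against 3 samples allow, and p of 0.3 or more for the other 6 members. Non-overlap of the groups, seen in 4 of 10 members, was seen in 47.3% of all genes tested.

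**Figure D2:**
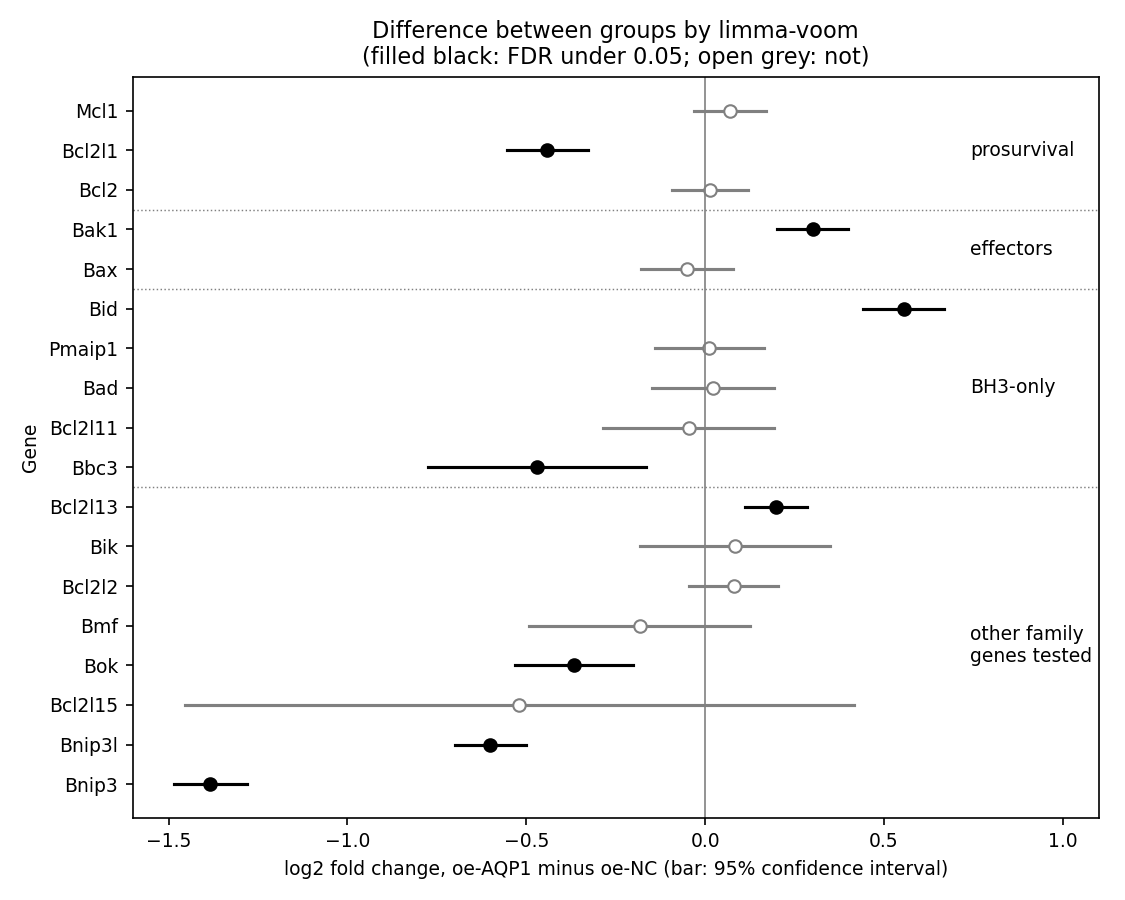
The log2FC (oe-AQP1 minus oe-NC) with its 95% confidence interval for the 10 members and for the 8 other BCL2 family genes tested, filled black where the FDR was under 0.05. Bid (0.56) and Bak1 (0.30) lie to the right of 0, Bcl2l1 (-0.44) and Bbc3 (-0.47) to the left, and Bnip3 (-1.38) lies farthest to the left.

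The promoter windows of the 4 called members and of Bax are shown because these genes carry the comparison. Each is a RefSeq window on GRCm38.p6 from 250 bases before to 50 bases after an annotated start, read 5′ to 3′ on the strand of the gene, and 9 of the 10 members had at least 1 window. Motifs were searched on both strands: the interferon-stimulated response element (GAAA, any 2 bases, GAAA), the STAT element GAS (TTCNNNGAA), the p53 decamer, the NF-κB site, the E2F site (TTTCGCGC) and the GC box (GGGCGG), and capitals mark every match. For Bcl2l1 and Bbc3, which have 3 windows each, the window with an NF-κB match is printed, so the match was a condition of the choice. The other windows of Bcl2l1 held none of these motifs, and those of Bbc3 held GC boxes only.

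Bid, chr6:120916775-120917074, reverse strand: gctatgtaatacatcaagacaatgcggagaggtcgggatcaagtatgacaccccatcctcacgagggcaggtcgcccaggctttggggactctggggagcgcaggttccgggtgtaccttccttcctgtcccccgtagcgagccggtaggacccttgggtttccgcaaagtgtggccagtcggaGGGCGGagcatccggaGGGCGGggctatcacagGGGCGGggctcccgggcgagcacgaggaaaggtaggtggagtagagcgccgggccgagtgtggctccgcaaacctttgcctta
Bak1, chr17:27028578-27028877, reverse strand: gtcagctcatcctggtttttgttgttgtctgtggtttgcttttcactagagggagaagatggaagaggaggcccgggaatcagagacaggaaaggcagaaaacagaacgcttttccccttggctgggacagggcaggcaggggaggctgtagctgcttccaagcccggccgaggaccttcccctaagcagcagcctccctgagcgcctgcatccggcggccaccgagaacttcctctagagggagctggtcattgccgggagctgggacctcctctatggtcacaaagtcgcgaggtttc
Bcl2l1, chr2:152830668-152830967, reverse strand: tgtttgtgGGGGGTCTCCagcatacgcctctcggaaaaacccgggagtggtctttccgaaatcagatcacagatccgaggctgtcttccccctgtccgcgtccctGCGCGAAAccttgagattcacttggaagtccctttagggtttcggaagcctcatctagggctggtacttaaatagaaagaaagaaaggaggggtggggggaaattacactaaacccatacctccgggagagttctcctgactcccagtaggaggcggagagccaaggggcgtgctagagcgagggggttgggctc
Bbc3, chr7:16309333-16309632, forward strand: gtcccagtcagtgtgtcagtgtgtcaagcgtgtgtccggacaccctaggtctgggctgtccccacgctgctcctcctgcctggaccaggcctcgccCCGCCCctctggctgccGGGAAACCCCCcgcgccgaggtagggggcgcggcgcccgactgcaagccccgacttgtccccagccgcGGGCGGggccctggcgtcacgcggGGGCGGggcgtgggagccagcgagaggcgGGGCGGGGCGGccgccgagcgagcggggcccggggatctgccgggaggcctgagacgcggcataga
Bax, chr7:45466849-45467148, reverse strand: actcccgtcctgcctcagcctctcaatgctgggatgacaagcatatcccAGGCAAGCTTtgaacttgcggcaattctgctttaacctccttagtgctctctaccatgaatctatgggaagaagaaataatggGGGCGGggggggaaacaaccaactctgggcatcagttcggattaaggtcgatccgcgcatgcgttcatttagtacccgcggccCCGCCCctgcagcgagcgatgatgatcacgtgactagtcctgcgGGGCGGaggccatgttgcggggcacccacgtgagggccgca

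The Bid window held 3 GC boxes and no other match, and the Bak1 window held none of the 6 motifs. The Bcl2l1 window held an NF-κB match (GGGGGTCTCC) at base -242 from the start and an E2F match at -145. The Bbc3 window held overlapping NF-κB matches within the same run of bases, at -137 (a match on both strands) and at -136, beside 5 GC boxes. The Bax window held a p53 decamer (AGGCAAGCTT, which reads as a match on both strands) at -201 and 3 GC boxes. No window of any member matched the interferon element or GAS. Over all 32851 windows of the table, 3.44% held the interferon element, 8.3% GAS, 8.36% the p53 decamer, 4.51% the NF-κB site, 0.32% the E2F site and 35.66% the GC box. These shares are per window and do not apply to the Bcl2l1 and Bbc3 windows, which were picked for their NF-κB match. A match describes letters only, and absence says only that these letters are not in the window.

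To compare levels between genes, length-scaled abundances (TPM) were computed from the expected counts and the length of each gene's Ensembl canonical transcript. In oe-NC cells Mcl1 (158 ± 12.5 TPM, SD, n = 3) and Bak1 (157 ± 12.1) came first, with overlapping ranges. Bcl2l1 (130.0 ± 11.6) and Bax (114 ± 4.64) followed, then Bad (54.9 ± 6.28) and Bid (50.2 ± 2.60), whose ranges overlapped. Pmaip1 (27.4 ± 1.83), Bcl2 (19.6 ± 0.474), Bbc3 (8.98 ± 1.80) and Bcl2l11 (4.497 ± 0.204) were the lowest and were apart from each other.

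In oe-AQP1 cells the order of 3 pairs of neighbours turned. Bak1 (197 ± 3.46 TPM, SD, n = 3) stood above Mcl1 (169 ± 4.24), Bax (112 ± 3.18) above Bcl2l1 (97.2 ± 2.59) and Bid (75.2 ± 3.22) above Bad (56.7 ± 0.740), and no neighbouring ranges overlapped. The order depends on the length used. With the length of all annotated exons together, Bcl2l1 (106 ± 2.81 TPM) and Bax (101 ± 2.92) had overlapping ranges in oe-AQP1 cells and Bid fell below Pmaip1 in both groups, since its annotated exons span 9796 bases against 2202 bases in the canonical transcript.

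Ratios within a sample put the members against each other. They are given without a test because the genes were chosen with results known, and for a ratio of 2 genes the fold between groups does not depend on length. Bax to Bcl2, the ratio most often quoted for this family, was 5.61, 5.87 and 5.23 in oe-AQP1 and 5.57, 5.80 and 6.08 in oe-NC samples. These values overlapped. Bak1 to Bcl2l1 was 2.06, 2.04 and 1.98 in oe-AQP1 and 1.20, 1.21 and 1.23 in oe-NC samples, a 1.67-fold higher mean with no overlap. Bid to Bcl2l1 showed the widest gap of the 5 pairs, at 0.802, 0.729 and 0.789 against 0.370, 0.399 and 0.393. Bid and Bak1 were called higher and Bcl2l1 lower, so the gaps in these ratios follow from results given above. Bax to Bcl2l1 was 1.30-fold and Bak1 to Mcl1 1.17-fold higher, also without overlap.

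The summed TPM of the 7 proapoptotic members was 480 ± 3.99 in oe-AQP1 and 417 ± 14.5 in oe-NC cells (SD, n = 3). That of the 3 prosurvival members was 286 ± 6.59 against 308 ± 24.2, with overlapping samples, although summed CPM of the 3 did not overlap. The ratio of these sums was 1.70, 1.71 and 1.63 in oe-AQP1 and 1.29, 1.36 and 1.42 in oe-NC samples, and its mean was 1.23-fold higher. The fold depended on which members were summed. It was 1.46 without Mcl1 and 1.30 without Bax, and 1.08 without Bcl2l1, 1.17 without Bak1 and 1.18 without Bid. Without Bak1, Bid and Bcl2l1 together, a choice made with their results known, it was 0.929 and the groups overlapped.

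The make-up of each class also differed. Among prosurvival TPM, Bcl2l1 made up 33.98% ± 0.605 in oe-AQP1 and 42.2% ± 0.467 in oe-NC cells (SD, n = 3), and Mcl1 59.0% ± 0.532 against 51.4% ± 0.0365. Among proapoptotic TPM, Bid made up 15.7% ± 0.785 against 12.0% ± 0.345 and Bak1 41.0% ± 0.395 against 37.7% ± 1.60, while the share of Bax was 23.3% ± 0.484 against 27.4% ± 2.02. Shares within a class move against each other by construction.

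**Figure D3:**
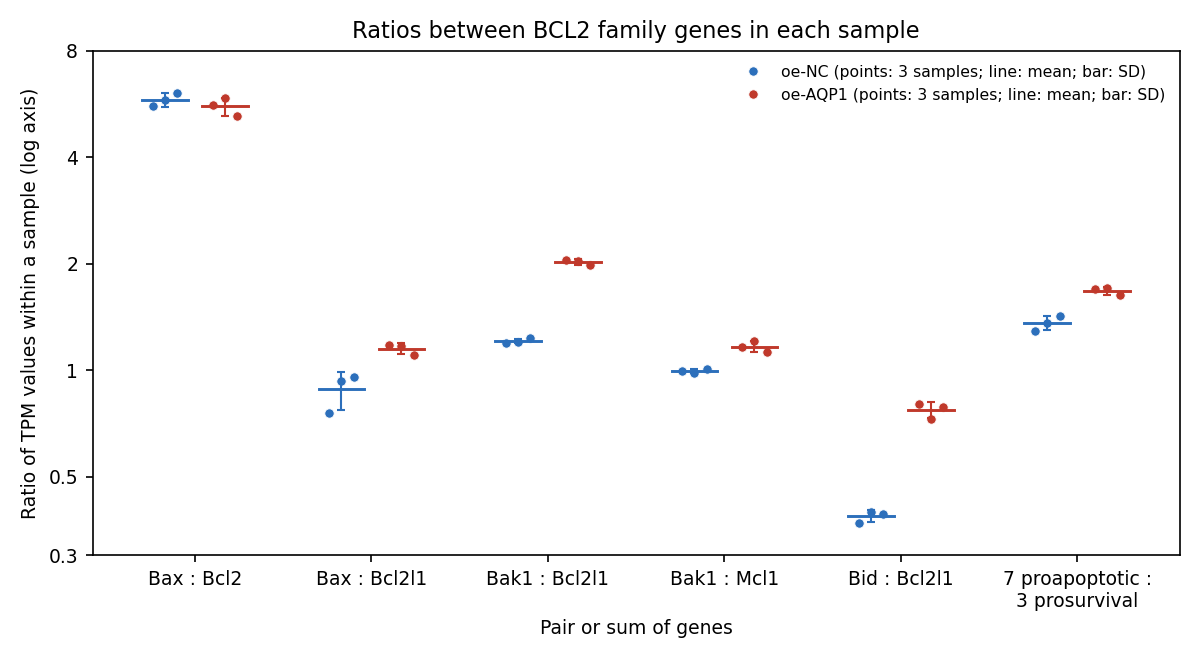
Ratios of TPM within each sample (log axis) for 5 pairs of genes and for the 7 proapoptotic over the 3 prosurvival members, with group mean (line) and SD (bar), oe-NC in blue and oe-AQP1 in red. Bax to Bcl2 overlaps between groups, while Bid to Bcl2l1, which was not a planned ratio, is 2.00-fold higher in oe-AQP1 cells.

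The members shared little that the choice did not fix. In the deposited annotation all 10 belong to the KEGG apoptosis pathway and 6 of 10 (Bax, Bbc3, Bcl2, Bcl2l1, Bid and Pmaip1) to its p53 signaling pathway. The Bcl-2 domain was annotated for the 5 multidomain members (Bak1, Bax, Bcl2, Bcl2l1 and Mcl1), of which 1 was called higher and 1 lower. Of the 5 BH3-only members, 1 was called higher and 1 lower too. Of all genes tested, 32.5% were called, 16% higher and 16.6% lower. The genes whose pattern over the 6 samples was most like that of Bid, of 9754 compared, were Tnks (Pearson's r = 0.999), Morc2a (r = 0.997) and Gm50166 (r = 0.997), a description dominated by the group difference.

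Of 14 further BCL2 family genes, 8 passed the low-count filter and 4 were called, 1 higher and 3 lower (50% against 32.5% of all genes). All 4 were among the 9 listed as proapoptotic, of which 7 were tested (57.1% called, median log2FC -0.37). Of all genes, 16% were called higher and 16.6% lower. None of these further genes is part of the summed proapoptotic TPM given above. Bnip3, a mitophagy receptor known to be induced by hypoxia, fell from 163 ± 6.17 CPM in oe-NC to 62.3 ± 1.72 CPM in oe-AQP1 cells (SD, n = 3; log2FC -1.38, SE 0.05, FDR = 5.84e-09 by limma-voom). Its relative Bnip3l fell from 131 ± 5.64 to 86.3 ± 1.31 CPM (log2FC -0.60, FDR = 4.20e-06), and Bok, an effector-like member, from 53.9 ± 6.05 to 41.6 ± 0.388 CPM (log2FC -0.37, FDR = 0.00400). Bcl2l13, also a mitophagy receptor, was the member that rose (log2FC 0.20, FDR = 0.00351). Of 5 other prosurvival genes only Bcl2l2 passed the filter (log2FC 0.08, FDR = 0.305). Bcl2a1a, Bcl2a1b and Bcl2l10 had no count in any sample, which at 3 counts per library allows up to 0.164 CPM, and Bcl2a1d had 1 count in all. The Bcl2a1 paralogues are nearly identical, so that their reads could be lost or split among them.

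Downstream of the mitochondria, 16 genes of cytochrome c release, the apoptosome and the executioner caspases were tested, and 4 were called, 1 higher and 3 lower (25% against 32.5% of all genes). Vdac1, which encodes an outer membrane channel, fell from 200.1 ± 1.95 to 146 ± 2.66 CPM (log2FC -0.46, FDR = 6.21e-06 by limma-voom), and Aifm1, a mitochondrial flavoprotein, had a log2FC of -0.32 (FDR = 2.10e-04). Cycs, which encodes cytochrome c itself, was at 86.5 ± 4.36 CPM in oe-AQP1 and 86.5 ± 7.75 CPM in oe-NC cells (FDR = 0.974), and Apaf1 and Casp9 did not pass the test. Without oe-NC sample 1, 10 of the 16 genes were called, 2 higher and 8 lower, while the number called over all genes rose as well, to 6456 of 16085.

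Of 8 inhibitor of apoptosis genes, 7 were tested, and 4 were higher and 1 lower (71.4% called, against 32.5% of all genes, 16% higher and 16.6% lower). The lower call, Birc6 (log2FC -0.11, FDR = 0.0321 by limma-voom), did not hold with DESeq2, with library size alone, with the replicate block or in 5 of the 6 fits that left out a sample. Birc3 and Birc2, which encode the cIAP ubiquitin ligases of TNF receptor complexes, were 1.74-fold and 1.46-fold higher, and Naip2 1.60-fold (FDR = 6.70e-05, 8.48e-05 and 1.86e-05 by limma-voom). Naip5 had 33 to 40 counts against 6 to 11, and the Naip genes are close paralogues among which reads can be split. Xiap, an inhibitor of executioner caspases, had a log2FC of 0.13 (FDR = 0.175).

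Upstream of Bid cleavage, 10 of 11 genes of death receptors, their ligands and their signaling partners were tested. Of these, 6 were called, all higher in oe-AQP1 cells (60% against 16% of all genes higher). The number called was 5 with DESeq2, with no filter and with the replicate block, and 4 without oe-AQP1 sample 3. Over all genes, 3631 of 15830 were called without oe-AQP1 sample 3. Of the called genes, the ligand gene Tnfsf10 had the largest log2FC (5.11), followed by Tnf (1.87) and Fas (0.98), which had at most 38 counts. Fas was the only receptor called. The receptor genes Tnfrsf1a (log2FC -0.08, FDR = 0.272 by limma-voom) and Tnfrsf10b (log2FC -0.06, FDR = 0.340) did not pass the test. Casp8, the protease that cleaves BID, rose from 52.6 ± 0.125 to 61.6 ± 0.347 CPM (log2FC 0.23, FDR = 0.00251 by limma-voom), and Cflar, which encodes its inhibitor c-FLIP, from 74.5 ± 4.15 to 90.0 ± 1.58 CPM (log2FC 0.27, FDR = 0.00195). Ripk1 had a log2FC of 0.18 (FDR = 0.0377). Fadd, the adaptor of caspase-8, did not pass the test (FDR = 0.973), nor did Tradd (FDR = 0.753).

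Of 22 genes that act on the transcription, binding or turnover of BCL2 family members, 20 were tested and 9 called, 4 higher and 5 lower (45% against 32.5% of all genes, 16% higher and 16.6% lower). With an oe-AQP1 sample left out, the number called was 5, 4 and 5 (without samples 1, 2 and 3). The number called over all genes fell as well, to 3790 of 15984, 3601 of 15863 and 3631 of 15830. Irf1, an interferon-induced transcription factor, was 2.70-fold higher (log2FC 1.43, FDR = 2.54e-08 by limma-voom). Huwe1, which encodes a ubiquitin ligase known to act on MCL1, fell from 638 ± 19.4 to 417 ± 2.02 CPM (log2FC -0.61, FDR = 4.09e-07), and Akt1, a kinase that phosphorylates BAD, had a log2FC of -0.20 (FDR = 0.0344). Chosen after their values were seen, Usp9x, a deubiquitinase known to act on MCL1, had a log2FC of -0.20 (FDR = 0.00699), and Trp53, which encodes p53, one of 0.19 (FDR = 0.00954).

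**Figure D4:**
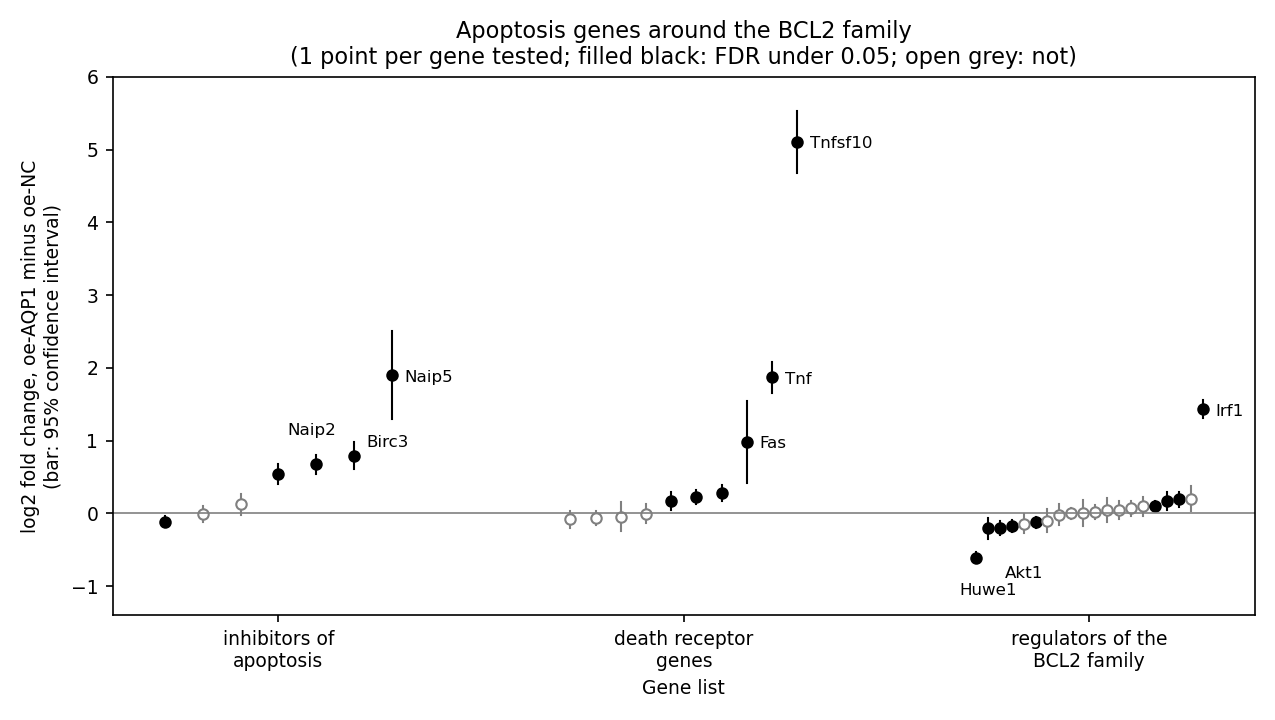
The log2FC (oe-AQP1 minus oe-NC) with its 95% confidence interval for each gene tested of the inhibitor of apoptosis, death receptor and regulator lists, filled black where the FDR was under 0.05, with the 3 largest called changes of each list named. The called death receptor genes all lie above 0, up to Tnfsf10 at 5.11, while the regulators lie on both sides of 0.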

How the data were processed

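RNA of 6 RENCA samples was sequenced paired-end from Illumina TruSeq libraries by the authors, who deposited expected (estimated) counts per gene, not scaled between samples, and their own group means, which were not used. The submitters' processing notes name fastp, HISAT2 and featureCounts (Subread) with GRCm38 (mm10), while the paper names GRCm39, and which made the table is not given in the sources used here. Of 78298 genes, 78168 were found in GENCODE M39 (GRCm39), the source of positions and lengths.

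Expected counts were rounded, filtered with filterByExpr (15522 genes kept), scaled by TMM and compared by limma-voom, as in the paper's methods (limma 3.58.1, edgeR 4.0.16, R 4.3.3). CPM use TMM-scaled library sizes, and intervals are at 95%. The steps were tested on simulated data. Also run were DESeq2 1.42.0, the quasi-likelihood test of edgeR, other scalings, filters and weights, unrounded counts, a block for sample number, and leaving out each sample. The use of exon-union length was added after the data were seen. The ratios of Bak1 and of Bid to Bcl2l1 were not among the planned ratios. Named were all members, Aqp1, the 3 largest called changes of each further list, and genes most like the member of lowest FDR. Bcl2l13, Bcl2l2, Cycs, Apaf1, Casp9, Birc2, Birc6 and Xiap fall outside that rule and were chosen after their values were seen. The same holds for Casp8, Cflar, Ripk1, Fadd, Tradd, Tnfrsf1a, Tnfrsf10b, Usp9x and Trp53. Members and lists were chosen with earlier results of these data known. Gene counts cannot resolve isoforms, and some genes are not reported here.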

Additional observations from a re-analysis of the deposited data

How the results depend on the processing

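Over 16 alternatives each, Bid, Bak1 and Bcl2l1 kept their direction and their call, and Bax, Bcl2, Pmaip1, Bcl2l11 and Bad were never called. Mcl1 was called under 2 alternatives and Bbc3 was not called under 2, as given above. Between 3 and 5 members were called with each sample left out, and 0 by the DEG rule. The log2FC of Bcl2 was -0.0047 with no filter and -0.0090 with sample quality weights, and lay between -0.0123 and 0.0346 with each sample left out. That of Pmaip1 was -0.0071 and -0.0459 under the same settings and between -0.0545 and 0.0593 with each sample left out, and the corresponding ranges were -0.132 to 0.0613 for Bcl2l11 and -0.067 to 0.0675 for Bad. These signs carry no direction. The apoptosome and caspase genes called numbered 7 with no filter, 11 with sample quality weights and 4 to 10 with each sample left out, and the regulators called 4 to 11 with each sample left out. The cause was not tested. Aqp1 stayed between 7.505 and 7.80 with each sample left out, and the ratio of summed proapoptotic to prosurvival TPM between 1.205 and 1.26 (1.26 in CPM, 1.20 with exon-union lengths). All genes called numbered 3601 to 6456 with each sample left out.

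Whether the sample numbers pair the samples is not given by the labels. Deviations of same-numbered samples from their group means correlated at 0.00911, -0.0044 and -0.0677. These values show no shared deviation but cannot tell how the samples were made. With the replicate block, 4 members were called, all 4 of them shared with the fit without it, and 4825 genes in all. Genes near 10 CPM, such as Bbc3 and Bcl2l11, rest on group means of 156 to 206 counts, which limits the size of change that can be called.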
